A study of Mus musculus with 16 samples.

Results

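The genes described were 9 that mark microglia, the resident macrophages of the brain, or that change when these cells become activated. They were taken by name from a fixed list, which was drawn up with earlier results of these data known: P2ry12, Cx3cr1, Csf1r, Tmem119, Trem2, Tyrobp, Ctss, Ctsd and Cst3. All 9 were found among the 19999 genes of the count table and were followed in the microglia and the other cell classes of the medial PFC. Single-nucleus RNA-Seq was available for 16 male mice of 22 weeks, with 4 in each of 4 groups and 1 library per mouse. WT mice of the B6;129 strain and 3xTg-AD mice, which are also on a B6;129 background, were each either exposed to repeated cycles of alcohol vapor or kept in chambers that delivered air. The exposed mice received ethanol and the alcohol dehydrogenase inhibitor pyrazole before vapor, and the unexposed mice received pyrazole in saline. Every mouse thus had pyrazole, and every mouse also went through the Morris water maze. Tissue was taken after the maze, days after the last vapor, so exposed mice here are mice with a history of exposure. 3xTg-AD mice carry mutant human APP and tau transgenes, which a neuronal promoter drives, and a mutation in the mouse presenilin 1 gene. The labels give no litters, and the study's text calls the WT controls littermates in its discussion.

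Microglia at rest survey the tissue with receptors for signals from neurons. P2RY12 senses nucleotides released by neighbouring cells, CX3CR1 binds the neuronal chemokine fractalkine, and CSF1R, the receptor for CSF1 and IL-34, is needed for the survival of microglia. TREM2 binds lipids and lipoproteins and signals through the adaptor TYROBP (DAP12), and both are needed for the response of microglia to amyloid plaques. Activated microglia raise lysosomal proteases such as cathepsin S and cathepsin D, and lower the genes of the resting state, P2ry12 and Tmem119 among them. Cystatin C, encoded by Cst3, is a secreted inhibitor of cysteine proteases, cathepsin S among them.

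The genes lie on several chromosomes. In mm10 (GRCm38, GENCODE M21), the build to which the authors aligned, P2ry12 spans chr3:59216272-59262871 (minus strand), Cx3cr1 chr9:119901616-120069879 (minus strand), Tmem119 chr5:113793729-113800516 (minus strand), Trem2 chr17:48346401-48354147 (plus strand), Tyrobp chr7:30413760-30417585 (plus strand), Ctss chr3:95526786-95556403 (plus strand), Ctsd chr7:142375911-142388038 (minus strand) and Cst3 chr2:148871722-148875692 (minus strand). P2ry12 lies within Med12l, which is read from the opposite strand, and the annotated span of Cx3cr1 overlaps Wdr48 and other genes. Whether the counting used the strand was not given in the sources used here, so reads of P2ry12 and Med12l may not be told apart. Med12l had 213 UMIs in microglia and P2ry12 had 1016.

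RefSeq promoter windows (GRCm38.p6) were given for 6 of the 9 genes. Each was searched on both strands for GAGGAAGT, a form of the site bound by the macrophage factor PU.1, for GGAAGT, the core that it shares with other ETS factors and that lies within the first, and for CACGTG, the E-box core that factors of lysosomal genes such as TFEB can bind. Of all 32851 windows of 300 bases, 3.2% held the first, 23.8% the second and 7.15% the third. The promoters of P2ry12 and Cst3 are shown because these genes passed the test for genotype and for alcohol, respectively, and those of Ctss and Ctsd because they belong to the proteases beside them. Each is printed from 250 bases before the start site to 10 bases after it, and capitals mark matches.
P2ry12, chr3:59262976-59263235, minus strand: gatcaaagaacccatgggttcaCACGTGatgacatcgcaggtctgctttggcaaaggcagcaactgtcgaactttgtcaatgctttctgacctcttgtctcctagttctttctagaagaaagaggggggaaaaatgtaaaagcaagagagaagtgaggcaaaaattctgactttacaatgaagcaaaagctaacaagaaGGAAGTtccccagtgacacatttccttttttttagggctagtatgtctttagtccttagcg
Cst3, chr2:148875503-148875762, minus strand: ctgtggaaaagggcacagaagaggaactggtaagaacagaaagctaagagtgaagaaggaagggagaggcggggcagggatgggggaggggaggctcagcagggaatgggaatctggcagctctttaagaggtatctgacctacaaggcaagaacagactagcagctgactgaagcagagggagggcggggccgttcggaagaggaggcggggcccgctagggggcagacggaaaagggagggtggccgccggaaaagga
Ctss, chr3:95526536-95526795, plus strand: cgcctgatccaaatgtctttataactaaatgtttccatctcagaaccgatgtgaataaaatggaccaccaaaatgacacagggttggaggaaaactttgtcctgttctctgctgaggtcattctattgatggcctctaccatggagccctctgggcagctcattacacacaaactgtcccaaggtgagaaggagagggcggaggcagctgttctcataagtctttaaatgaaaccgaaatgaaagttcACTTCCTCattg
Ctsd, chr7:142387818-142388077, minus strand: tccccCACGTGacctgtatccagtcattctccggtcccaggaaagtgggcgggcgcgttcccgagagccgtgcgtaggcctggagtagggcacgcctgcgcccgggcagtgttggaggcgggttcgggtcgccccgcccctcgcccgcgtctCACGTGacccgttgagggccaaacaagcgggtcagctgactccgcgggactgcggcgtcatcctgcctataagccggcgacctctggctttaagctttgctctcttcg
The Ctss promoter held the long motif across its start site, on the strand opposite to the gene, and that of P2ry12 held the ETS core 51 bases before the start site and an E-box 228 bases before it. The Ctsd promoter held 2 E-boxes, 245 and 98 bases before its start site. None of these letters occurred in the windows of Cst3, Trem2 or Cx3cr1, which says nothing about sites of other sequence or elsewhere.

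The 114512 nuclei of the table gave 216742276 UMIs, and between 9622031 and 17544364 per mouse. Of 112806 nucleus barcodes, 1694 occurred in 2 or more libraries. Clustering without the 9 genes gave a cluster of 2952 nuclei in which all 19 microglia markers fixed for this purpose were raised at least 1.5-fold, with leading genes that included Fgd2, Cyth4, Ptprc and Inpp5d. It is microglia-like by these markers and is called microglia here. Each mouse had between 65 and 324 microglia nuclei and between 51549 and 306573 microglial UMIs, with 774 UMIs in the median microglia nucleus. Of the UMIs of all nuclei, ribosomal RNA-associated transcripts took 2.06% to 3.31% in 3xTg-AD mouse 12 and in mice 26 and 27 of the WT controls. In the other mice they took 0.317% to 0.602%, so the libraries that stood apart were all from mice not exposed to alcohol.

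All 9 genes had their highest mean level in microglia, and for 4 of them no mouse of another named class reached the lowest microglial value. Levels are in CPM, the UMIs of a gene relative to all UMIs of that class in a mouse, scaled by TMM within each class, so the comparison of classes is a description. P2ry12 had 399 ± 122 CPM in microglia (SD, n = 16 mice) and at most 54.7 in any mouse of another class, with its next highest mean in oligodendrocytes (17.4 ± 12.5). Cx3cr1 had 576 ± 189 CPM in microglia, against 20.6 ± 26.4 in vascular leptomeningeal cells (VLMCs, 13 mice). Csf1r had 527 ± 82.2 CPM against 17.5 ± 22.6 in endothelial cells (15 mice), and Trem2 had 243 ± 74.2 against 12 ± 9.69 in oligodendrocytes. Neurons had mean levels of 3.49 to 8.18 CPM of these 4 genes, and below microglia no neighbours in the order of classes differed by more than the larger of their SDs. Tmem119, a membrane protein used as a marker of resident microglia, had 136 ± 45.9 CPM in microglia and 14.9 ± 26.5 in VLMCs, where the highest mouse (92.6) was above the lowest microglial mouse (87.1). Tyrobp had 158 ± 64.2 CPM in microglia and 34.7 ± 34 in endothelial cells, where the highest mouse (89.1) was above the lowest microglial mouse (67.7).

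Ctsd and Cst3 were the genes most shared with other classes, while the microglial means of Ctss and Tyrobp were 6.62 and 4.54 times the next highest. Ctss had 292 ± 112 CPM in microglia and 44.2 ± 42.5 in VLMCs, whose ranges met. Ctsd had 489 ± 131 CPM in microglia, 231 ± 99.5 in VLMCs, 174 ± 84.2 in endothelial cells and 146 ± 21 in astrocytes, so the microglial mean was 2.11 times the next. OPCs (106 ± 31.3), GABAergic neurons (104 ± 19.7) and oligodendrocytes (102 ± 27.3) had about equal levels of Ctsd, and glutamatergic neurons the lowest (62.0 ± 9.95). Cst3 had 2277 ± 705 CPM in microglia and 2164 ± 572 in astrocytes, which did not differ beyond their spread. Below them stood endothelial cells (1594 ± 422), VLMCs (1218 ± 360), oligodendrocytes (861 ± 238), OPCs (832 ± 171), GABAergic neurons (464 ± 96.4) and glutamatergic neurons (348 ± 57.3).

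**Figure D1:**
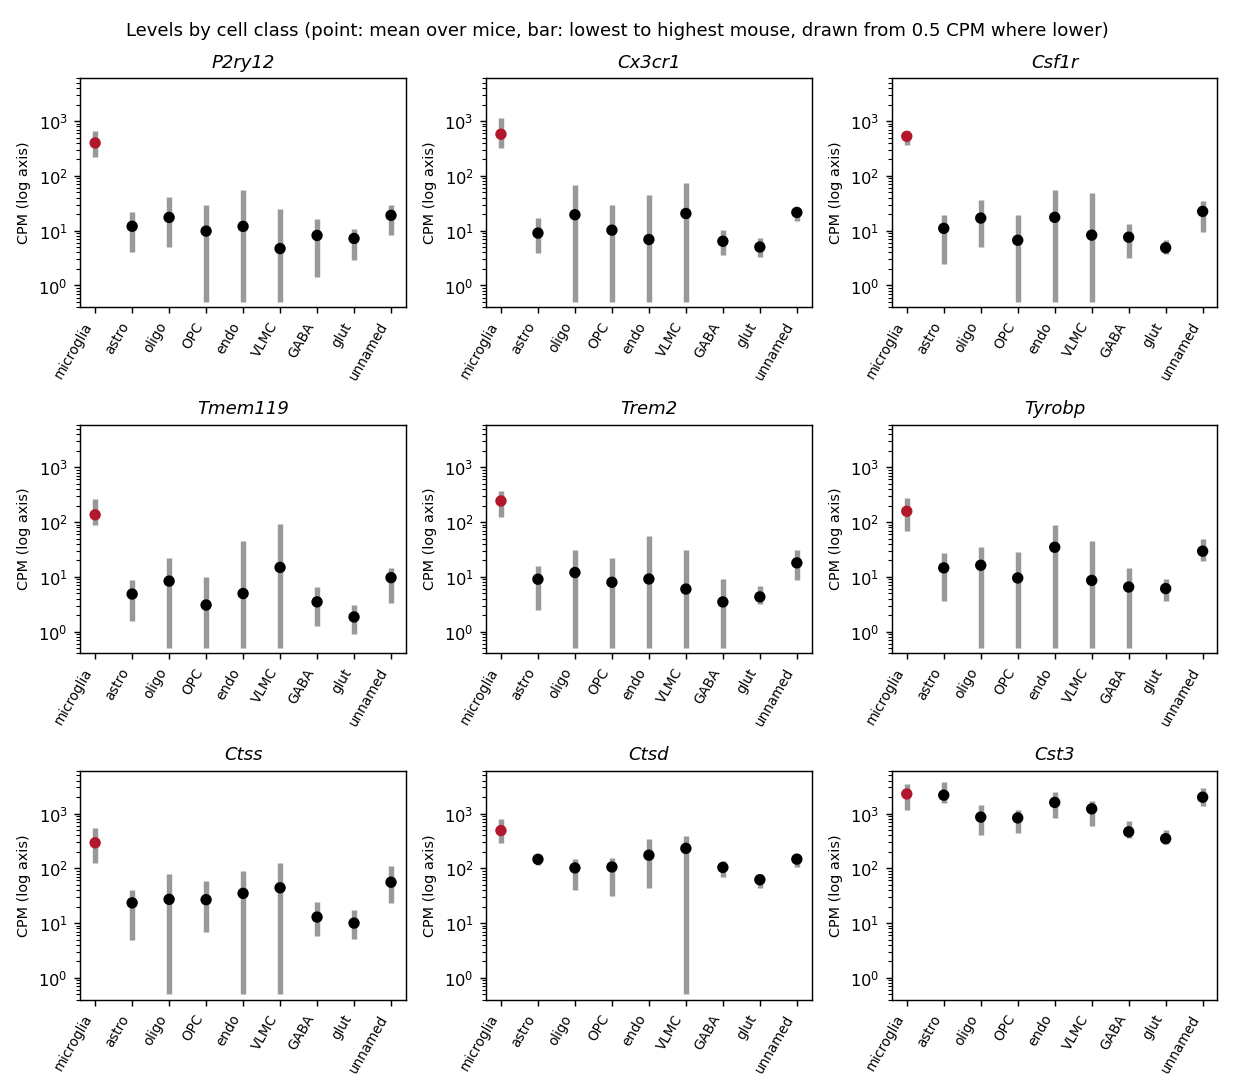
Level of each gene (CPM, log axis) in 8 named cell classes and in the nuclei left unnamed, with the mean over mice as a point and the lowest to highest mouse as a bar. Microglia are red, and the bars of P2ry12, Cx3cr1, Csf1r and Trem2 in microglia stand clear of all others, whereas that of Cst3 overlaps astrocytes.

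Although the genes were highest in microglia, much of their RNA was counted elsewhere. Microglia made up 2.58% of the nuclei and held 44.4% of the UMIs of Cx3cr1, 41.4% of Csf1r, 32.3% of P2ry12, 29.7% of Tmem119 and 28.8% of Trem2. They held 15.7% of the UMIs of Tyrobp, 15.6% of Ctss, 6.4% of Ctsd and 3.49% of Cst3. P2ry12 was detected in 27.3% of microglia nuclei and in 1.75% of glutamatergic nuclei, which should lack it and had a median of 2353 UMIs. With each nucleus thinned to 500 UMIs, which left out no nucleus, these shares came to 17.9% and 0.412%. The other genes apart from Ctsd and Cst3 were detected in 0.475% to 2.48% of glutamatergic nuclei, which is read as background. Ctsd was detected in 14.5% of glutamatergic nuclei and Cst3 in 55.9%, and after thinning in 3.42% and 18%, against 22.0% and 66.4% of microglia nuclei. The 35382 nuclei left unnamed, which had a median of 848 UMIs, held all 9 genes at levels above those in glutamatergic neurons, such as Cst3 at 1985 CPM.

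The genes with the most similar pattern over the 8 class means were found by the correlation of log2(CPM + 1) among 13541 genes. Cd300c2, Il10ra and Gcnt1 were nearest to P2ry12, and Siglech, Pld4 and Gm2245 nearest to Cx3cr1. Ly86, Cyth4 and Inpp5d were nearest to Csf1r, and C1qc, Ly86 and Csf1r itself nearest to Trem2. Mbnl1, Tmem173 and Arl10 were nearest to Tmem119, and Aif1, Lpar6 and Fam167b to Tyrobp. For Ctss these were C1qa and Laptm5, for Ctsd they were Mgat1, Zfp106 and Gdi2, and for Cst3 they were Tlr3, Hsd3b7 and Agmo. Correlations of these nearest genes were between 0.966 and 0.995. Among the 9 genes, Csf1r and Trem2 were most alike (r = 0.982) and P2ry12 and Cst3 least (r = 0.527). The classes share libraries and differ in depth, so the values are a description.

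The first comparison asked how the genes differed between 3xTg-AD and WT mice, averaged over alcohol. In microglia, P2ry12 and Trem2 were lower in 3xTg-AD mice and no gene of the list was called higher. These were 2 of 9 genes, and 57 of all 4678 genes tested were called (1.22%, 33 higher and 24 lower). Calls here are genes whose edgeR p, adjusted over the whole table, did not exceed 0.05. In all, 7 of the 9 values were below 0, with a median log2 difference of -0.29 against 0.00 for all genes, of which 49.6% were above 0.

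P2ry12 had 340.2, 409, 422.4 and 473.8 CPM in the 4 WT controls and 456.9, 514.7, 587.7 and 664.8 CPM in exposed WT mice. The 3xTg-AD mice had 221.2, 234.6, 313 and 358 CPM, and those exposed to alcohol had 282.7, 317, 350.7 and 437.5 CPM. Of the 3xTg-AD mice, 5 of 8 lay below every WT mouse. The unexposed groups overlapped, and among the alcohol-exposed mice the genotypes did not overlap. The log2 difference by genotype was -0.68 ± 0.13 (SE, 8 against 8 mice, adjusted p = 0.000812), and it lay between -0.74 and -0.63 with any 1 mouse left out. The call was lost, at -0.50 with an adjusted p of 0.0959, when microglia were chosen by marker counts instead of the cluster. These were the 2074 nuclei with at least 5 UMIs of the 19 markers and with that list the most enriched of the class lists. Of them, 1853 lay in the cluster. Med12l, in which the gene lies, had a log2 difference of -0.67 and was not called (adjusted p = 0.176), and whether its reads took part in the value of P2ry12 was not tested.

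Trem2 had 130.9, 279.4, 289.4 and 366.2 CPM in WT controls and 280.7, 291.3, 303.8 and 321.6 CPM in exposed WT mice. It had 125.2, 140.8, 169.9 and 195.5 CPM in 3xTg-AD mice and 207.4, 229.2, 244.8 and 308.4 CPM in exposed 3xTg-AD mice. The unexposed 3xTg-AD mice were lowest, and WT control mouse 28, with 65 microglia nuclei and 8 UMIs of Trem2, lay among them. The log2 difference by genotype was -0.59 ± 0.16 (adjusted p = 0.0309). It depended on single mice: without WT control mouse 26 or 36, WT alcohol mouse 7 or 18, 3xTg-AD mouse 12 or 13, or 3xTg-AD alcohol mouse 31 or 33, it lay between -0.59 and -0.50 and the adjusted p between 0.0508 and 0.161. The call was also lost with DESeq2 (adjusted p = 0.0695), without the 3 mice with the most ribosomal RNA-associated transcripts (-0.53, adjusted p = 0.18), with no filter on low counts (-0.55, adjusted p = 0.0735), in the nuclei chosen by marker counts (-0.52, adjusted p = 0.139) and without a subcluster of 129 nuclei with many UMIs (-0.53, adjusted p = 0.0622). That subcluster had a median of 2631 UMIs and raised 3 GABAergic markers over the other microglia nuclei. Whether it held RNA of neurons was not tested, and it was kept in the main fits.

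Cx3cr1 showed a smaller difference in the same direction. It had 315.9, 605.3, 625.8 and 646.2 CPM in WT controls, 558.1, 658, 795.4 and 1115 CPM in exposed WT mice, 348.5, 443.9, 497 and 570.4 CPM in 3xTg-AD mice and 399.2, 510.4, 552.6 and 569 CPM in exposed 3xTg-AD mice. The groups overlapped, with the highest values in WT mice exposed to alcohol. The log2 difference was -0.48 ± 0.14 (adjusted p = 0.0627), and it passed the test without 3xTg-AD mouse 14 (-0.53, adjusted p = 0.0361), WT alcohol mouse 17 (-0.53, 0.0361) or 18 (-0.55, 0.0198), or WT control mouse 27 (-0.56, 0.00846). It also passed without the 3 mice with the most ribosomal RNA-associated transcripts (-0.55, adjusted p = 0.04) and with that share as a covariate (-0.55, adjusted p = 0.0358), but it was smaller in the nuclei chosen by marker counts (-0.24, adjusted p = 0.553).

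The other genes did not pass the test for genotype. Tmem119 had 98.15, 109.3, 109.5 and 165.1 CPM in WT controls and 87.14, 89.35, 102.4 and 103.2 CPM in 3xTg-AD mice, and its log2 difference was -0.49 ± 0.19 (adjusted p = 0.27). Csf1r, which ranged from 362 to 646 CPM over all mice, differed by -0.29 ± 0.12 (adjusted p = 0.38). Ctsd differed by -0.25 ± 0.13 and Cst3 by -0.21 ± 0.12. Tyrobp, at 0.30 ± 0.19, and Ctss, at 0.17 ± 0.17, were the only values above 0, and that of Ctss became -0.03 without 3xTg-AD mouse 14. That of Tyrobp was 0.57 without the 3 mice with the most ribosomal RNA-associated transcripts, 0.58 with that share as a covariate and 0.16 without WT control mouse 36 (adjusted p from 0.168 to 0.87). That of Cst3 was -0.13 without WT control mouse 36, -0.32 in the nuclei chosen by marker counts and -0.38 without the 3 mice with under 100 microglia nuclei (adjusted p from 0.206 to 0.818). Thus the values of Trem2 and of its adaptor Tyrobp had opposite signs, but only that of Trem2 was called, and the difference between them was not tested.

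**Figure D2:**
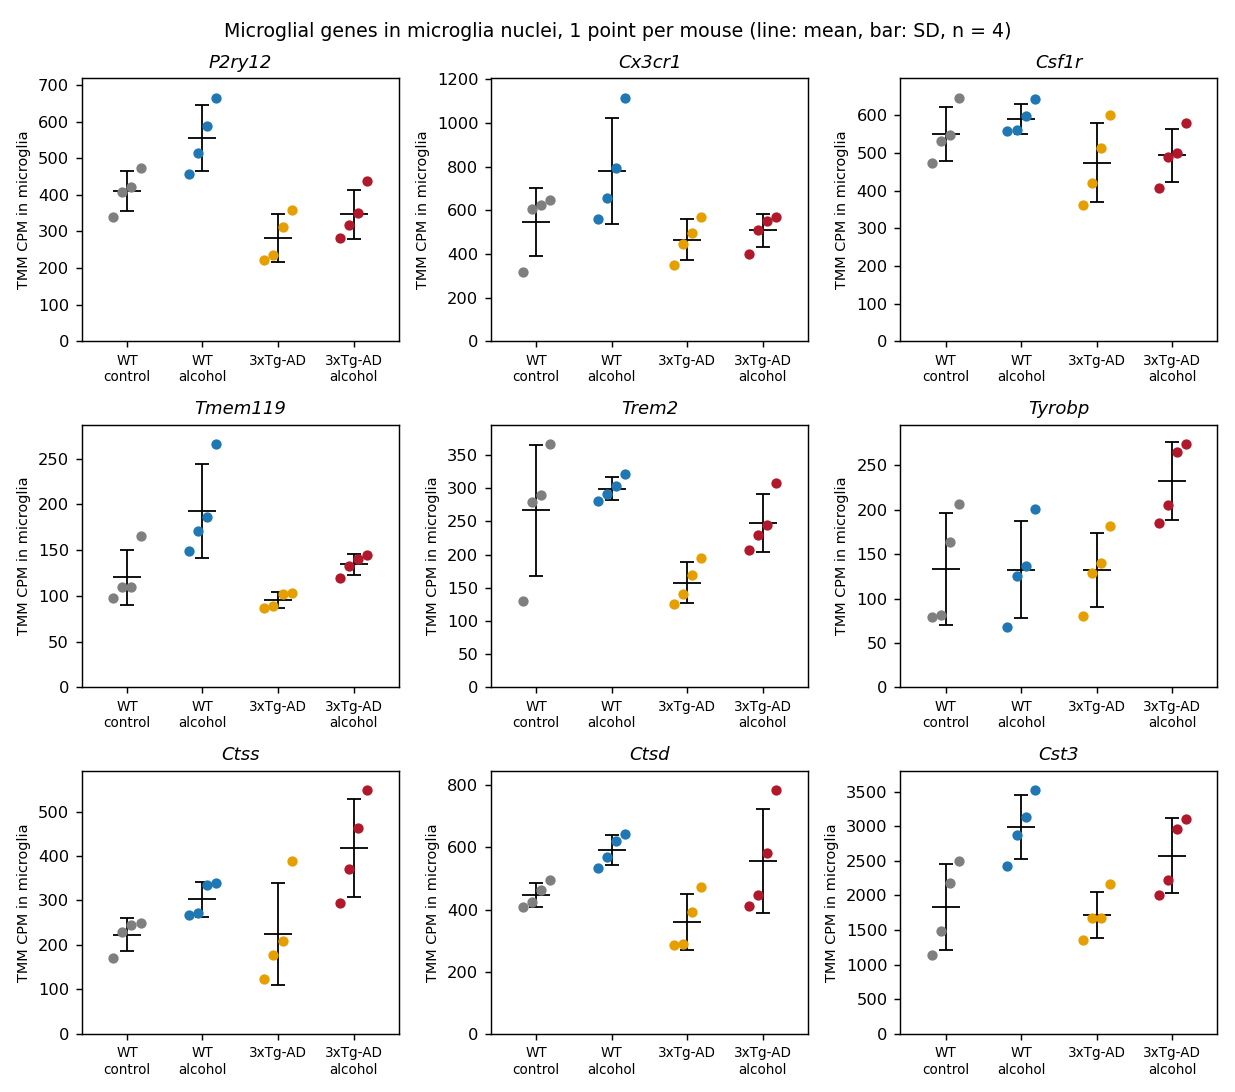
Level of each gene in microglia (TMM-scaled CPM), 1 point per mouse, with the mean as a line and the SD as a bar for the 4 mice of each group. P2ry12 lies lower in the 3xTg-AD groups, from 221 to 438 CPM against 340 to 665 CPM in WT mice, and Cst3 lies higher in the alcohol-exposed groups, from 2005 to 3521 CPM against 1142 to 2498 CPM.

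The second comparison asked how the genes differed between mice with and without a history of alcohol exposure, averaged over genotype. Cst3 was higher in the microglia of exposed mice and was the only 1 of the 9 genes called, beside 14 of the 4678 genes tested (0.299%, 7 higher and 7 lower). All 9 log2 differences were above 0, with a median of 0.41 against 0.00 for all genes. The 19 markers that named the microglia cluster had a median of 0.188, so values above 0 were not limited to the 9 genes. Whether the 9 genes rose beyond microglial genes in general was not tested. The value of Csf1r was too near 0 to have a stable sign, at 0.02 ± 0.12.

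Cst3 had 1142, 1489, 2183 and 2498 CPM in WT controls and 2420, 2871, 3139 and 3521 CPM in exposed WT mice. It had 1354, 1669, 1681 and 2173 CPM in 3xTg-AD mice and 2005, 2219, 2963 and 3111 CPM in exposed 3xTg-AD mice. Of the unexposed mice, 5 of 8 lay below all exposed mice, and WT control mice 26 and 36 and 3xTg-AD mouse 14 overlapped the range of exposed mice. The test passed for the average of both genotypes and in neither genotype alone. The log2 difference was 0.60 ± 0.12 (adjusted p = 0.00714), and it was called with any 1 mouse left out (0.53 to 0.68). The share of ribosomal RNA-associated transcripts, which was highest in 3 unexposed mice, moved with alcohol. Without these 3 mice the log2 difference was 0.48 (adjusted p = 0.0407), and with the share as a covariate it was also 0.48 but not called (adjusted p = 0.263). It was not called either without WT control mice 27 and 28 and WT alcohol mouse 7, which had under 100 microglia nuclei each (0.49, adjusted p = 0.184), nor in the nuclei chosen by marker counts (0.48, adjusted p = 0.339). The mean level of Cst3 in microglia was only 1.05 times that in astrocytes, where it also differed by alcohol (0.52). Astrocyte markers in the microglia sums came to 1090 to 1990 CPM in WT controls and 1730 to 2560 CPM in exposed WT mice. In 3xTg-AD mice they came to 785 to 1000 CPM, and in exposed 3xTg-AD mice to 985 to 1440 CPM. Only 2 of these markers could be tested, Slc1a3 and Slc1a2, and neither was called by alcohol. By genotype, Slc1a3 was lower in 3xTg-AD mice and Slc1a2 was not called. The difference of the sums between genotypes may thus be one of Slc1a3 rather than of astrocyte RNA. Whether astrocyte RNA took part in the Cst3 value was not tested, and these sums cannot decide it.

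The cathepsins had values of similar size that did not pass the test. Ctss, a cysteine protease that is active outside the lysosome as well, had 170.1, 229, 244.1 and 250.3 CPM in WT controls and 266.2, 270.8, 334.8 and 339.8 CPM in exposed WT mice. It had 122.9, 176.4, 207.8 and 388.4 CPM in 3xTg-AD mice and 294.4, 369.8, 462.7 and 547.9 CPM in exposed 3xTg-AD mice. Exposed WT mice lay above all WT controls, whereas among 3xTg-AD mice the unexposed mouse 14 lay within the exposed range. The log2 difference by alcohol was 0.62 ± 0.17 (adjusted p = 0.0812), and it passed the test without that mouse (0.83, adjusted p = 0.00188), without 3xTg-AD alcohol mouse 31 (0.69, adjusted p = 0.0333), and when no filter on low counts was used (0.67, adjusted p = 0.0149).

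Ctsd, an aspartic protease of the lysosome, had 409, 425.2, 461.5 and 495.4 CPM in WT controls and 532.5, 570.5, 620.5 and 643.1 CPM in exposed WT mice. It had 284.6, 288.2, 390.9 and 473.3 CPM in 3xTg-AD mice and 411.4, 446.6, 583.1 and 783.9 CPM in exposed 3xTg-AD mice. The WT groups did not overlap and the 3xTg-AD groups did. The log2 difference was 0.46 ± 0.13 (adjusted p = 0.111), and it passed the test only without 3xTg-AD mouse 14 (0.53, adjusted p = 0.0421) among the fits that left out 1 mouse. The remaining values were 0.50 ± 0.18 for Tmem119, 0.41 ± 0.19 for Tyrobp, 0.32 ± 0.13 for P2ry12, 0.31 ± 0.15 for Trem2 and 0.26 ± 0.14 for Cx3cr1, with adjusted p from 0.237 to 0.474. Several of these moved by over 1.5 times under other settings and did not pass the test there. Tyrobp was at 0.88 (adjusted p = 0.0687) without the 3 mice with the most ribosomal RNA-associated transcripts, at 0.98 (adjusted p = 0.0875) with that share as a covariate and at 0.23 (adjusted p = 0.787) in the nuclei chosen by marker counts. P2ry12 was at 0.15 in those nuclei, and Cx3cr1 was at 0.11 there, at 0.16 without the 3 mice, at 0.12 with the covariate and at 0.14 without WT alcohol mouse 6.

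**Figure D3:**
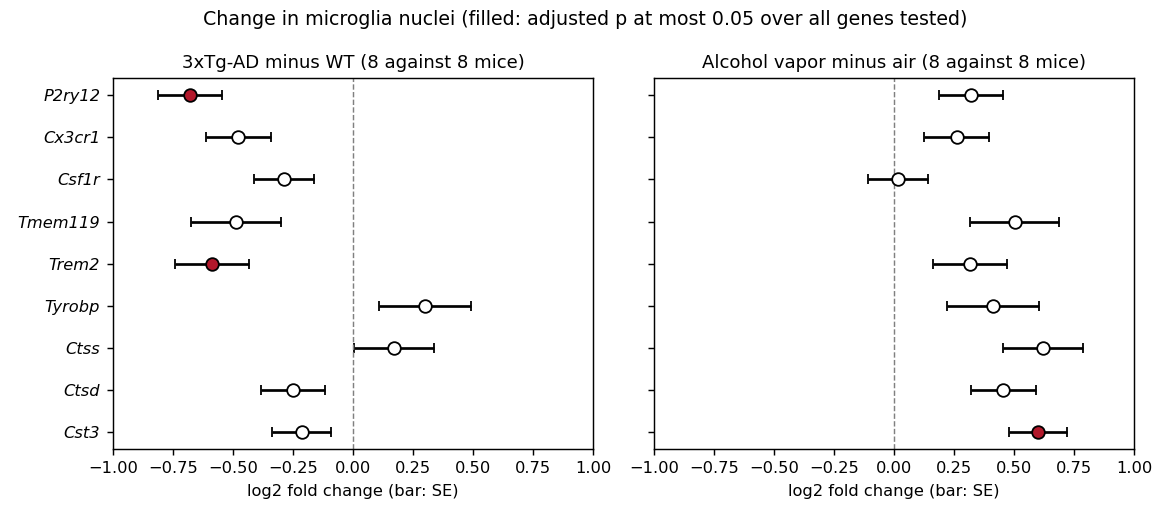
Log2 fold change of each gene in microglia by genotype (3xTg-AD minus WT) and by alcohol (vapor minus air), with the SE as a bar and filled points for an adjusted p of at most 0.05. P2ry12 (-0.68) and Trem2 (-0.59) are filled on the left and Cst3 (0.60) on the right, and all 9 points on the right are above 0, that of Csf1r at 0.02 with a sign that changed in other fits.

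The pairs of groups gave 1 call. Between 3xTg-AD and WT mice that were both exposed to alcohol, P2ry12 was lower, at -0.76 ± 0.18 on the log2 scale (adjusted p = 0.0173), as 1 of 25 genes called (0.534%). This call was lost without WT alcohol mouse 6 (-0.68, adjusted p = 0.13) or 17 (-0.76, 0.0608), or 3xTg-AD alcohol mouse 33 (-0.71, 0.0688) or 34 (-0.67, 0.113), and in the nuclei chosen by marker counts (-0.61, 0.175). Cx3cr1 differed by -0.66 ± 0.18 between the same groups (adjusted p = 0.0659), and it passed the test without WT alcohol mouse 18 (-0.81, 0.0268) or WT control mouse 27 (-0.67, 0.0411). It also passed without the 3 mice with the most ribosomal RNA-associated transcripts (-0.66, 0.0294), with that share as a covariate (-0.71, 0.0302) and with only these groups in the fit (-0.66, 0.0297). None of the 9 genes was called in the other pairs. Against WT controls, 3xTg-AD mice exposed to alcohol had log2 differences of 0.79 ± 0.23 for Ctss (adjusted p = 0.0865), 0.71 ± 0.27 for Tyrobp (0.225) and 0.38 ± 0.17 for Cst3 (0.388), while 47 of all genes were called (1.0%). The value of Ctss passed the test without 3xTg-AD mouse 14 (0.79, adjusted p = 0.0382) or 3xTg-AD alcohol mouse 31 (0.94, 0.0277), with no filter on low counts (0.88, 0.0132) or with only these groups in the fit (0.80, 0.0471). That of Cst3 fell to 0.25 without the 3 mice with the most ribosomal RNA-associated transcripts, 0.20 with that share as a covariate, 0.23 without WT control mouse 27, 0.16 in the nuclei chosen by marker counts and 0.10 without the 3 mice with under 100 microglia nuclei (adjusted p from 0.722 to 0.939). Tyrobp had 78.97, 81.79, 164.3 and 206.5 CPM in WT controls and 185.3, 205.6, 265.6 and 273.9 CPM in exposed 3xTg-AD mice, which overlapped. It had 67.7, 125.6, 136.4 and 200.9 CPM in exposed WT mice and 80.43, 128.4, 139.6 and 182.1 CPM in 3xTg-AD mice, so that the group with both had the highest mean. With the ribosomal RNA-associated share as a covariate the difference of Tyrobp from WT controls was 1.56 (adjusted p = 0.0189), and without the 3 mice in which that share was highest it was 1.45 (adjusted p = 0.0289). Without WT control mouse 36 it was 0.44 (adjusted p = 0.577).

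Unexposed 3xTg-AD mice against WT controls had all 9 values below 0, from -0.87 ± 0.24 for Trem2 (adjusted p = 0.127) to -0.02 for Tyrobp. Of all genes tested, 49.5% were above 0, and 7 were called (0.150%). Trem2 passed that test without WT control mouse 28 (-1.01, adjusted p = 0.0297). For WT mice exposed to alcohol against WT controls, the 9 values were above 0, from 0.03 for Csf1r to 0.67 ± 0.17 for Cst3 (adjusted p = 0.205), beside 49.0% of all genes. No gene was called there by edgeR or DESeq2 (0.00%), although 433 had an unadjusted p under 0.05. Exposed against unexposed 3xTg-AD mice differed by 0.86 ± 0.21 for Ctss (adjusted p = 0.109) and by less for the others, and 1 gene in all was called (0.0214%). Ctss passed that test without 3xTg-AD mouse 14 (1.26, adjusted p = 0.000521) or 3xTg-AD alcohol mouse 31 (0.997, adjusted p = 0.0319), or with no filter on low counts (0.91, adjusted p = 0.00909). Tyrobp passed it with the ribosomal RNA-associated share as a covariate (1.21, adjusted p = 0.017). These comparisons share groups of mice, so their values are not independent of each other.

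The interaction tested for a difference in the alcohol effect between 3xTg-AD and WT mice. The interaction values of the 9 genes ran from -0.37 ± 0.27 for Cx3cr1 to 0.64 ± 0.38 for Tyrobp, with Trem2 at 0.56 ± 0.31 and Ctss at 0.47 ± 0.34. The smallest adjusted p among the 9 was 0.975. No gene was called by edgeR or DESeq2 (0.00%), and 218 had an unadjusted p under 0.05.

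Groups of mice that did not overlap were also counted. By genotype and by alcohol, 8 against 8 mice, none of the 9 genes separated the mice, whereas 8 (0.171%) and 5 (0.107%) of all genes did. With 4 against 4 mice, P2ry12 and Tmem119 separated the genotypes among exposed mice, where 6.03% of all genes did so. Tmem119, Trem2 and Tyrobp separated exposed from unexposed 3xTg-AD mice (4.42% of all genes), Ctss and Ctsd separated exposed WT mice from WT controls (4.62%), and Ctss separated exposed 3xTg-AD mice from WT controls (5.79%). No gene of the list separated unexposed 3xTg-AD mice from WT controls (3.25%).

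Other genes of the same pathways were read from lists in the same fit. Of 19 tested genes of resting microglia, 1 was lower in 3xTg-AD mice and 0 were higher, beside 1.22% of all genes called. The median log2 difference of the list was -0.09. The called gene was Gpr34, a receptor for lysophospholipids (-0.60 ± 0.15, adjusted p = 0.0143), which was also lower among exposed mice (-0.82, adjusted p = 0.0196). The most abundant genes of that list, Tgfbr1 and Mef2c, had log2 differences of -0.35 (adjusted p = 0.334) and 0.04. Of 12 tested disease-associated genes, 3 were called by genotype in different directions, beside 1.22% of all genes, and the median was -0.015. Cd9, a tetraspanin, was lower (-1.17 ± 0.26, adjusted p = 0.004025), also among exposed mice (-1.25 ± 0.29, adjusted p = 0.0139). The components of MHC class I, B2m (0.94 ± 0.23, adjusted p = 0.016) and H2-D1 (1.79 ± 0.39, adjusted p = 0.0212), were higher, and they were also higher in exposed 3xTg-AD mice than in WT controls (1.74, adjusted p = 0.00123, and 2.31, adjusted p = 0.0459). H2-D1 was low in WT controls (30.6 ± 14.5 CPM) and exposed WT mice (37.2 ± 24.9). It had 105.5 ± 61.7 CPM in 3xTg-AD mice and 179.9 ± 94.9 in exposed ones. It may thus have passed the filter on low counts only through the 3xTg-AD groups, so its call is weak support. Apoe and Fth1, the most abundant of the disease-associated genes, had -0.04 and -0.06.

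Of 16 tested signaling partners of these receptors, 1 was called by genotype, beside 1.22% of all genes, and the median was 0.16. Inpp5d (-0.05) and Arrb2 (0.25) were the most abundant of them. Fyb, an adaptor of immune cells, was higher in 3xTg-AD mice (0.56 ± 0.16, adjusted p = 0.04997) and in exposed 3xTg-AD mice than in WT controls (0.94, adjusted p = 0.0115). Of 26 tested lysosomal genes, 1 was called: Ctsh, which encodes cathepsin H, was higher by genotype (0.87 ± 0.19, adjusted p = 0.00459) and higher in exposed 3xTg-AD mice than in WT controls (1.01, adjusted p = 0.0419) or in exposed WT mice (1.10, adjusted p = 0.0139). The median of the lysosomal list by genotype was 0.00. None of the 4 tested ligand genes, with Apoe and Clu the most abundant, and none of the 6 tested inflammatory genes, with Irf8 and Itgam the most abundant, was called by genotype or alcohol. The 3 other cystatins had too few UMIs to test. Single mice decided some of these calls: H2-D1 was not called without WT alcohol mouse 7, 3xTg-AD mouse 13 or WT control mouse 26, 27 or 28 (1.73 to 1.76), Gpr34 not without 3xTg-AD mouse 13 or 21 or WT control mouse 26 (-0.56 to -0.54), B2m not without 3xTg-AD alcohol mouse 34 (0.79) or WT control mouse 36 (0.90), and Fyb was called in 5 of the 16 fits that left out 1 mouse. Without the 3 mice with the most ribosomal RNA-associated transcripts, Gpr34 (-0.52, adjusted p = 0.163), H2-D1 (1.81, adjusted p = 0.0869) and Ctsh (0.74, adjusted p = 0.0686) were not called. With that share as a covariate, Gpr34 (-0.49, adjusted p = 0.125), B2m (0.88, adjusted p = 0.0727) and H2-D1 (1.58, adjusted p = 0.0865) were not called. B2m (0.84, adjusted p = 0.0877), H2-D1 (1.63, adjusted p = 0.206) and Fyb (0.45, adjusted p = 0.244) were not called without the 3 mice with under 100 microglia nuclei, nor were B2m (adjusted p = 0.0706) and Fyb (adjusted p = 0.114) by DESeq2. Fyb was not called either with RLE size factors (adjusted p = 0.0503) or with stricter filters on nuclei (adjusted p = 0.0609). In the nuclei chosen by marker counts Cd9 (-0.56, adjusted p = 0.482) and Gpr34 (-0.29, adjusted p = 0.491) were not called. Gpr34 is itself among the markers that chose these nuclei, so the setting is not a free check of it.

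The calls of these genes between pairs of groups also depended on single mice, except that of B2m in exposed 3xTg-AD mice against WT controls. In exposed 3xTg-AD mice against WT controls, H2-D1 was lost without WT control mouse 26, 27, 28 or 36, WT alcohol mouse 7 or 17, 3xTg-AD mouse 13 or 3xTg-AD alcohol mouse 33 (2.19 to 2.67, adjusted p from 0.0613 to 0.247), and Ctsh without WT control mouse 26, 27 or 36, WT alcohol mouse 7 or 3xTg-AD alcohol mouse 31 or 34 (0.83 to 1.03, adjusted p from 0.0502 to 0.164). Fyb was lost there without WT control mouse 28 (0.79, adjusted p = 0.0883) or 36 (0.88, adjusted p = 0.0606). With the ribosomal RNA-associated share as a covariate, B2m (1.59, adjusted p = 0.127), H2-D1 (1.72, adjusted p = 0.525) and Ctsh (0.74, adjusted p = 0.567) were not called in that comparison. Without the 3 mice in which that share was highest, H2-D1 (2.10, adjusted p = 0.337) and Ctsh (0.73, adjusted p = 0.501) were not called. Without the 3 mice with under 100 microglia nuclei, H2-D1 (2.08, adjusted p = 0.382), Fyb (0.81, adjusted p = 0.17) and Ctsh (0.99, adjusted p = 0.164) were not called, and Ctsh was lost with DESeq2 (adjusted p = 0.103) and with microglia chosen by marker counts (adjusted p = 0.0964) or clustered in other ways (adjusted p = 0.0961 and 0.0796), or without the subcluster of many UMIs (adjusted p = 0.06). H2-D1 was lost by a small margin with stricter filters on nuclei (2.30, adjusted p = 0.05001). Among exposed mice, Gpr34 was lost without WT alcohol mouse 7 or 17 or 3xTg-AD alcohol mouse 33 or 34 (-0.81 to -0.73). It was also lost in the nuclei chosen by marker counts (-0.61, adjusted p = 0.259), which its own counts helped to choose. Ctsh was lost among exposed mice without WT alcohol mouse 17 or 18 or 3xTg-AD alcohol mouse 31 (0.95 to 1.04). Cd9 was lost there without 3xTg-AD alcohol mouse 31 (-1.10, adjusted p = 0.0977), with DESeq2 (-1.26, adjusted p = 0.0516) and in the nuclei chosen by marker counts (-0.84, adjusted p = 0.342).

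No gene of these lists was called by alcohol, although 22 of 26 lysosomal genes (median 0.24), 12 of 12 disease-associated genes (median 0.25) and 14 of 19 resting-state genes (median 0.21) had values above 0, beside 2340 of all 4678 genes tested (median 0.00). Among them Apoe had 0.25 ± 0.12 (adjusted p = 0.406) and Fth1 had 0.25 ± 0.12 (adjusted p = 0.401). The 19 markers that named the cluster summed to 4450 to 6790 CPM in WT controls and 5890 to 7650 CPM in exposed WT mice, which overlapped. They summed to 4980 to 6320 CPM in 3xTg-AD mice and 6810 to 8340 CPM in exposed 3xTg-AD mice, which did not overlap. The only marker called by genotype was Gpr34. Of the 19 markers, the complement genes C1qa (0.81, adjusted p = 0.00054) and C1qb (0.60, adjusted p = 0.0328) were higher with alcohol, where 0.299% of genes were called. Neither was called with the ribosomal RNA-associated share as a covariate (0.73, adjusted p = 0.0875, and 0.63, adjusted p = 0.217), in the nuclei chosen by marker counts (0.58, adjusted p = 0.149, and 0.46, adjusted p = 0.414) or without the 3 mice with under 100 microglia nuclei (0.66, adjusted p = 0.0668, and 0.53, adjusted p = 0.223). The marker counts that chose those nuclei include C1qa and C1qb themselves, so that setting is not a free check of them. C1qb was not called either without the 3 mice with the most ribosomal RNA-associated transcripts (0.61, adjusted p = 0.0834), nor without WT control mouse 27, 28 or 36, WT alcohol mouse 7, 17 or 18, 3xTg-AD mouse 13 or 21, or 3xTg-AD alcohol mouse 33 or 34 (0.53 to 0.61), whereas C1qa was called with any 1 mouse left out.

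Markers of some other cells in the microglia sums moved with the groups. The 11 astrocyte markers, none of which was at 0, summed to 1090 to 1990 CPM in WT controls and 1730 to 2560 CPM in exposed WT mice, but to 785 to 1000 CPM in 3xTg-AD mice and 985 to 1440 CPM in exposed 3xTg-AD mice. Only 2 of the 11 could be tested, both of them glutamate transporters of astrocytes. Slc1a3 was lower in 3xTg-AD mice (-2.63, adjusted p = 1.723e-21). The study also reports this gene as lower in microglia of transgenic mice, exposed or not, and as higher in astrocytes of exposed transgenic mice. Slc1a2 was at -0.04 and not called (adjusted p = 0.965). The genotype difference of the astrocyte sum may thus be one of Slc1a3, and whether the sum followed astrocyte RNA was not tested. The 10 perivascular macrophage markers summed to 131 to 329 and 165 to 208 CPM in unexposed WT and 3xTg-AD mice, and to 229 to 453 and 337 to 638 CPM in exposed ones. The 10 markers of other leukocytes, of which Themis and Ly6c2 were at 0, summed to 18.2 to 72.6 CPM in unexposed mice and 67.7 to 150 CPM in exposed mice. Without the 131 nuclei of a subcluster that raised 6 of the perivascular macrophage markers, the log2 difference of Cst3 by alcohol was 0.60 (adjusted p = 0.0106) and that of P2ry12 by genotype -0.69 (adjusted p = 0.000677). The part of astrocyte and leukocyte RNA in the values of Cst3, P2ry12 and the other genes was not tested. Glutamatergic markers summed to 2280 to 4350 CPM over all mice. GABAergic markers came to 694 to 1220 CPM, oligodendrocyte markers to 220 to 891 CPM and OPC markers to 148 to 337 CPM. Endothelial markers came to 21.5 to 72.8 CPM, mural markers to 16.4 to 101 CPM and VLMC markers to 22.8 to 110 CPM. For each of these lists, the ranges of all groups overlapped.

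The same genes were then compared in the other classes, where those that passed the filter on low counts could be tested. In astrocytes, Cst3 and Ctss were called. Cst3 had 1544, 1627, 1686 and 2063 CPM in WT controls and 2144, 2223, 2347 and 2490 CPM in exposed WT mice. It had 1527, 1651, 1885 and 2132 CPM in 3xTg-AD mice and 2147, 2540, 2892 and 3726 CPM in exposed 3xTg-AD mice. All 8 exposed mice lay above all 8 unexposed mice, and 0.181% of the genes tested in astrocytes separated these mice. The log2 difference by alcohol was 0.52 ± 0.11 (adjusted p = 0.00697), where 0.732% of 9969 genes were called. It was 0.50 with an adjusted p of 0.0594 when the ribosomal RNA-associated share was a covariate. Cst3 was also higher in exposed 3xTg-AD mice than in unexposed 3xTg-AD mice (0.64 ± 0.15, adjusted p = 0.0309, 0.231% of genes called) or WT controls (0.69 ± 0.15, adjusted p = 0.00692, 1.21% of genes called), the latter not without 3xTg-AD alcohol mouse 33 (0.53, adjusted p = 0.0896), without the 3 mice with the most ribosomal RNA-associated transcripts (0.65, adjusted p = 0.0579) or with that share as a covariate (0.64, adjusted p = 0.0934). The former was lost without 3xTg-AD mouse 12, 13 or 21, WT alcohol mouse 18, or 3xTg-AD alcohol mouse 33 or 34 (0.48 to 0.66, adjusted p from 0.0514 to 0.28) and with only these groups in the fit (0.64, adjusted p = 0.0865).

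Ctss in astrocytes rested on few UMIs, 2 to 46 per mouse. It had 4.886, 11.27, 19.48 and 20.05 CPM in WT controls, 15.38, 17.46, 20.76 and 22.16 CPM in exposed WT mice, 19.83, 20.36, 29.84 and 39.15 CPM in 3xTg-AD mice and 21.5, 32.3, 39.67 and 40.96 CPM in exposed 3xTg-AD mice. The log2 difference by genotype was 0.87 ± 0.22 (adjusted p = 0.0266, 0.883% of genes called), and that of exposed 3xTg-AD mice against WT controls was 1.23 ± 0.31 (adjusted p = 0.0295). By DESeq2 neither was called (adjusted p = 0.0738 and 0.0772), nor with the ribosomal RNA-associated share as a covariate (0.85, adjusted p = 0.0611, and 1.19, adjusted p = 0.202). The second was also lost without the 3 mice in which that share was highest (1.18, adjusted p = 0.109). The first was also lost without WT control mouse 27 or 36, WT alcohol mouse 6 or 7, 3xTg-AD mouse 13 or 14, or 3xTg-AD alcohol mouse 33 (0.76 to 0.84), and the second without WT control mouse 27 or 36 or 3xTg-AD alcohol mouse 33 or 34 (1.02 to 1.15). Ctss was detected in 3.41% of astrocyte nuclei and 2.48% of glutamatergic nuclei, and in 1.2% and 0.583% after thinning, against 14.4% of microglia nuclei. In astrocytes these shares were 2.0% in WT controls and 4.91% in exposed 3xTg-AD mice (0.784% and 1.63% after thinning). In glutamatergic nuclei, where Ctss was read as background, they were 1.82% and 3.7% (0.471% and 0.747%). How much of the astrocyte value was background was not tested.

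**Figure D4:**
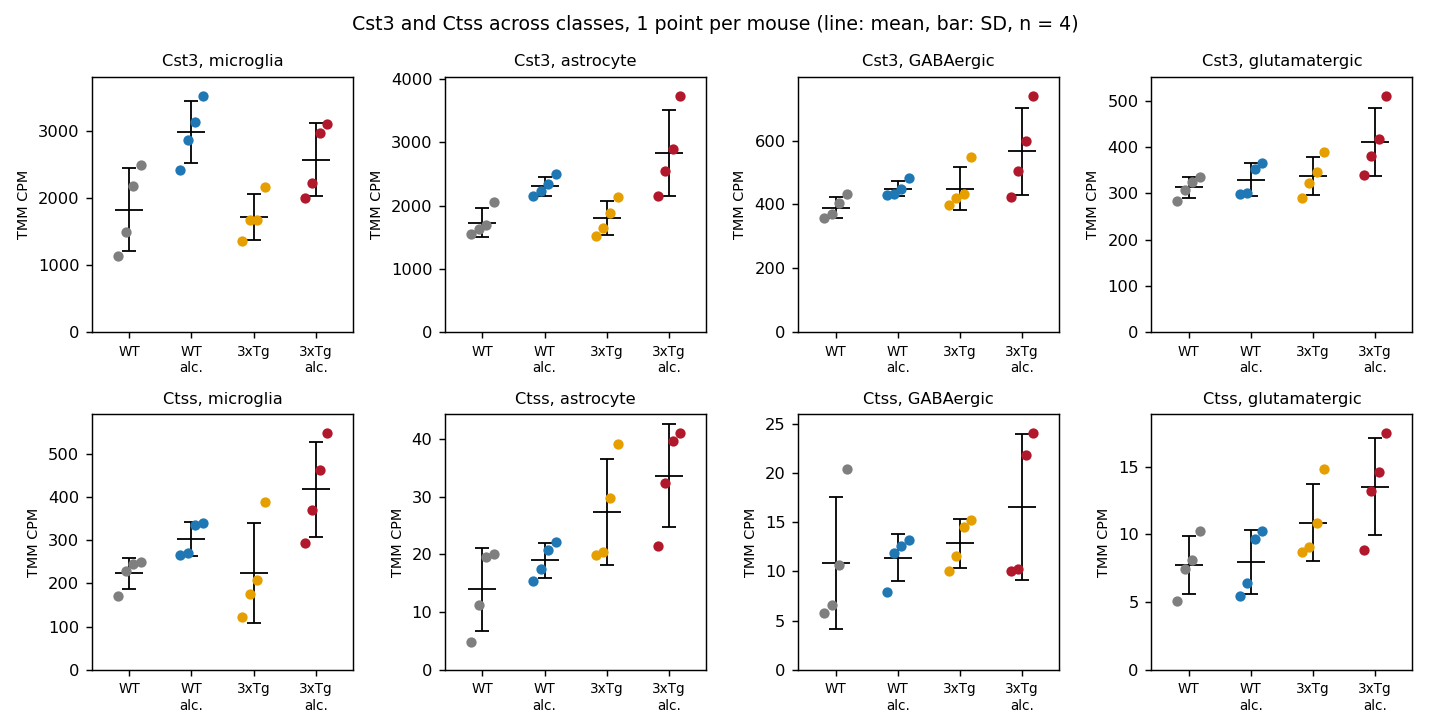
Cst3 (top) and Ctss (bottom) in microglia, astrocytes, GABAergic neurons and glutamatergic neurons (TMM-scaled CPM), 1 point per mouse, with the mean as a line and the SD as a bar for 4 mice per group. In astrocytes all exposed mice (2144 to 3726 CPM of Cst3) lie above all unexposed mice (1527 to 2132 CPM).

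In GABAergic neurons, Cst3 was higher in exposed 3xTg-AD mice than in WT controls (0.52 ± 0.14, adjusted p = 0.0424, 1.59% of genes called), with 356.2, 370.4, 403.9 and 431.3 CPM in WT controls and 423, 504.8, 599.4 and 739.1 CPM in exposed 3xTg-AD mice. This call was lost with the ribosomal RNA-associated share as a covariate (0.59, adjusted p = 0.0554) and with only these groups in the fit (0.51, adjusted p = 0.0981). It was also lost without WT control mouse 27, 28 or 36, WT alcohol mouse 7 or 18, 3xTg-AD mouse 21, or 3xTg-AD alcohol mouse 4 or 33 (0.37 to 0.54, adjusted p from 0.0507 to 0.231). The value of 739.1 CPM was that of mouse 33. That mouse also had the most Cst3 of its group in microglia, astrocytes, oligodendrocytes and glutamatergic neurons. By alcohol, Cst3 was at 0.25 ± 0.10 in GABAergic neurons (adjusted p = 0.196, 1.73% of genes called), 0.18 ± 0.09 in glutamatergic neurons (adjusted p = 0.279, 2.62%), 0.31 ± 0.11 in OPCs (adjusted p = 0.233, 0.263%), 0.20 ± 0.13 in oligodendrocytes (adjusted p = 0.592, 0.208%) and 0.11 ± 0.16 in endothelial cells (15 mice, adjusted p = 0.805, 0.565%). All 9 genes were tested in glutamatergic neurons, and none was called by genotype (2.95% of genes called), by alcohol, or in exposed 3xTg-AD mice against WT controls (3.66%). VLMCs were not tested, because 1 group had only 2 mice with at least 10 nuclei.

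In the sum of all nuclei, where more microglia and more RNA per cell cannot be told apart, Ctss and Tyrobp were higher in exposed 3xTg-AD mice than in WT controls. Ctss had 9.377, 14.24, 15.61 and 22.7 CPM in WT controls and 23.29, 28.15, 32.09 and 53.31 CPM in exposed 3xTg-AD mice, which did not overlap (1.13 ± 0.27, adjusted p = 0.0244). Of the 16767 genes, 4.06% were called and 10.9% did not overlap between these groups. Tyrobp had 7.358, 8.73, 9.819 and 13.74 CPM and 12.97, 14.71, 18.02 and 24.5 CPM, which overlapped (0.82 ± 0.22, adjusted p = 0.0425). The sum without the microglia nuclei kept the 35382 unnamed nuclei, whose cell types are not known. There the value of Ctss was 1.03 ± 0.28 (adjusted p = 0.0485, 3.53% of genes called) and that of Tyrobp 0.69 ± 0.24 (adjusted p = 0.114). Each of these 3 calls depended on single mice. With all nuclei, Ctss was not called without WT control mouse 27, 28 or 36 or 3xTg-AD alcohol mouse 33 or 34 (0.83 to 1.16, adjusted p from 0.0504 to 0.0884), with the ribosomal RNA-associated share as a covariate (1.21, adjusted p = 0.0752) or with only these groups in the fit (1.13, adjusted p = 0.0704). Tyrobp was not called without WT control mouse 27, 28 or 36, WT alcohol mouse 6, 17 or 18, 3xTg-AD mouse 13 or 21, or 3xTg-AD alcohol mouse 33 or 34 (0.62 to 0.82, adjusted p from 0.0502 to 0.139), or with only these groups in the fit (0.82, adjusted p = 0.089). Without the microglia nuclei, Ctss was not called in 12 of the 16 fits that left out 1 mouse, the exceptions being those without WT control mouse 26, 3xTg-AD mouse 12 or 14, or 3xTg-AD alcohol mouse 4. It was also lost with no filter on low counts (adjusted p = 0.0625), without the 3 mice with the most ribosomal RNA-associated transcripts (adjusted p = 0.0616), with that share as a covariate (adjusted p = 0.124) and with only these groups in the fit (adjusted p = 0.124).

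The share of microglia among all nuclei was higher in 3xTg-AD mice. It was 3.31 ± 0.965% in 3xTg-AD mice and 1.91 ± 0.696% in WT mice (SD, n = 8 each), a difference of 1.4 percentage points (two-sided exact permutation test, p = 0.00233, adjusted p = 0.0163 over 7 comparisons). It was 1.84 ± 0.719% in WT controls, 1.99 ± 0.774% in exposed WT mice, 2.84 ± 0.342% in 3xTg-AD mice and 3.78 ± 1.21% in exposed 3xTg-AD mice. The highest shares, 4.5% and 5.09%, were those of exposed 3xTg-AD mice 31 and 34, and the lowest, 0.932% and 1.04%, those of WT control mouse 28 and exposed WT mouse 7. No pair of groups passed an exact permutation test at n = 4 each (p from 0.0571 to 0.8, where the smallest possible is 0.0286). Alcohol gave 2.89 ± 1.34% against 2.34 ± 0.748% (exact permutation p = 0.337, n = 8 each). The genotype difference did not pass with named nuclei as the denominator (adjusted p = 0.0598 by exact permutation), with microglia chosen by marker counts (0.108), or without the 3 mice with the most ribosomal RNA-associated transcripts (0.11). Nuclei were counted as recovered, so a share shows the nuclei in the libraries and may differ from that in the tissue.

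**Figure D5:**
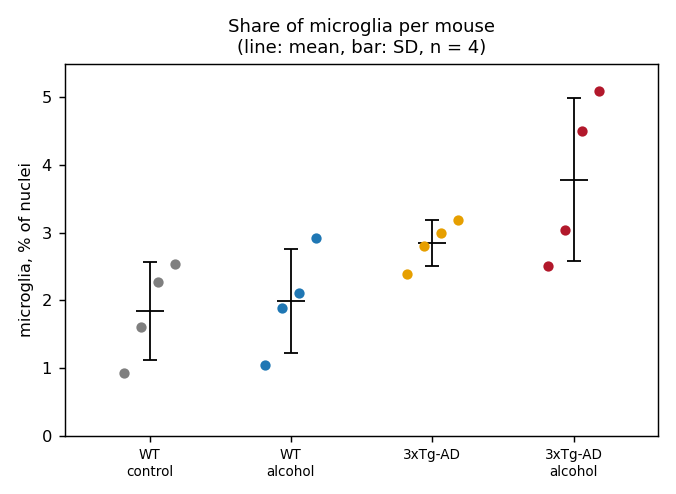
Microglia as a percentage of all nuclei, 1 point per mouse, with the mean as a line and the SD as a bar for the 4 mice of each group. The 3xTg-AD mice lie from 2.39% to 5.09% and the WT mice from 0.932% to 2.93%.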

How the data were processed

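The authors aligned the reads of 16 libraries to mm10 with Cell Ranger 6.1.1 and deposited UMI counts per gene and nucleus without normalization, and 0 columns of the table lacked a sample. Nuclei were clustered with scanpy 1.11.5 (2000 variable genes without the 9 genes, 30 components, 20 neighbors, Leiden resolution 1.5) and named from fixed markers. Glutamatergic clusters were named by Slc17a7 (log2 difference from all other nuclei above -0.3) and Gad1 (below -0.5), with no minimum of raised markers. Each raised 0 to 2 of the 12 glutamatergic markers against all other nuclei. Together they raised 8 of the 12 against the other named nuclei. These names were rebuilt and may not match those of the study. Scrublet marked 48 nuclei (0.042%) as doublets, 0 of them microglia, which is too few for it to have worked, and no nucleus was removed. Counts were summed per mouse and class (at least 10 nuclei) and tested in R 4.3.3 by the quasi-likelihood test of edgeR 4.0.16 (TMM scaling, filterByExpr, Benjamini-Hochberg over all genes tested), with all 16 mice in 1 fit, by pairs of groups, genotype, alcohol and interaction. Shares were compared by exact permutation. DESeq2 1.42.0, other size factors, filters, covariates, nuclei and each mouse left out were alternatives. The 9 genes and all lists were chosen with earlier results of these data known. From each list the text names up to 4 called genes by p and otherwise the 2 of highest level, and for likeness the 3 genes of highest correlation, with 1 gene not reported here; C1qa, C1qb, Slc1a3 and Slc1a2 were named after their values were seen. Each mouse gave 1 library, and SDs and SEs do not separate counting error from variation among mice.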

Additional observations from a re-analysis of the deposited data

Results flagged for a closer look

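In the 40 groups of 4 mice that were examined for a mouse far from the others (the 9 genes in microglia and the share of microglia), 2 values stood apart by Dixon's criterion, as many as chance gives at about 1 in 20 groups. Cx3cr1 was at 316 CPM in WT control mouse 27, below 605 to 646 CPM in the other 3 WT controls. Tmem119 was at 165 CPM in WT control mouse 36, above 98.2 to 110 CPM in the other 3.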

How the results depend on the processing

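No paired analysis was possible because each mouse has its own number and the groups share none. P2ry12 by genotype and Cst3 by alcohol kept their direction in every fit, and their calls except where the report gives the loss. Removing scrublet doublets took out 0 microglia nuclei and tested nothing. Of the values of single genes under alternatives, 1253 kept direction and side of the threshold, 187 lost the call, 16 gained it and 24 changed sign. Those outside microglia, or of genes other than the 9, were chosen after seeing the data. For each alternative below, counts of calls are given only where they differed from the main fit by over 1.5 times, or where only 1 of them was 0. Counts that stayed nearer to the main fit are left out, so these lists are not complete. With DESeq2, for example, Cst3 by alcohol and P2ry12 among exposed mice were also called. With no filter on low counts, the genes in all called were 124 (3xTg-AD alcohol against WT control), 23 (3xTg-AD against WT control), 4 (WT alcohol against WT control), 28 (3xTg-AD alcohol against 3xTg-AD), 108 (3xTg-AD alcohol against WT alcohol), 131 (genotype), 39 (alcohol) and 1 (interaction), and those of the 9 genes called were 1 (3xTg-AD alcohol against WT control), 1 (3xTg-AD alcohol against 3xTg-AD), 1 (genotype) and 2 (alcohol). With DESeq2, the genes in all called were 3 (3xTg-AD against WT control), 2 (3xTg-AD alcohol against 3xTg-AD) and 37 (genotype), and those of the 9 genes called were 1 (genotype). Without the 3 mice with the most ribosomal RNA-associated transcripts, the genes in all called were 2 (WT alcohol against WT control), 4 (3xTg-AD alcohol against 3xTg-AD) and 57 (3xTg-AD alcohol against WT alcohol), and those of the 9 genes called were 1 (3xTg-AD alcohol against WT control) and 2 (3xTg-AD alcohol against WT alcohol). With their share as a covariate, the genes in all called were 13 (3xTg-AD alcohol against WT control), 3 (3xTg-AD against WT control), 5 (3xTg-AD alcohol against 3xTg-AD), 41 (3xTg-AD alcohol against WT alcohol) and 3 (alcohol), and those of the 9 genes called were 1 (3xTg-AD alcohol against WT control), 1 (3xTg-AD alcohol against 3xTg-AD), 2 (3xTg-AD alcohol against WT alcohol) and 0 (alcohol). With only the mice of the groups compared, the genes in all called were 1 (WT alcohol against WT control), 0 (3xTg-AD alcohol against 3xTg-AD) and 50 (3xTg-AD alcohol against WT alcohol), and those of the 9 genes called were 1 (3xTg-AD alcohol against WT control) and 2 (3xTg-AD alcohol against WT alcohol). Without perivascular macrophage-like nuclei, the genes in all called were 0 (3xTg-AD alcohol against 3xTg-AD). In microglia chosen by marker counts, the genes in all called were 28 (3xTg-AD alcohol against WT control), 4 (3xTg-AD against WT control), 0 (3xTg-AD alcohol against 3xTg-AD) and 1 (alcohol), and those of the 9 genes called were 0 (3xTg-AD alcohol against WT alcohol), 0 (genotype) and 0 (alcohol). At clustering resolution 1.0, the genes in all called were 0 (3xTg-AD alcohol against 3xTg-AD) and 7 (alcohol). Without a subcluster of 129 nuclei with many UMIs, chosen after seeing the data, the genes in all called were 5 (3xTg-AD alcohol against 3xTg-AD) and 40 (3xTg-AD alcohol against WT alcohol), and those of the 9 genes called were 1 (genotype). Without the 3 mice with under 100 microglia nuclei, also chosen after seeing the data, the genes in all called were 16 (3xTg-AD against WT control) and 3 (alcohol), and those of the 9 genes called were 0 (alcohol). With each mouse left out, calls among all genes ran from 31 to 64 (3xTg-AD alcohol against WT control), 4 to 13 (3xTg-AD against WT control), 0 to 3 (WT alcohol against WT control), 1 to 6 (3xTg-AD alcohol against 3xTg-AD), 16 to 45 (3xTg-AD alcohol against WT alcohol), 45 to 80 (genotype) and 3 to 25 (alcohol). With each mouse left out, calls among the 9 genes ran from 0 to 1 (3xTg-AD alcohol against WT control), 0 to 1 (3xTg-AD against WT control), 0 to 1 (3xTg-AD alcohol against 3xTg-AD), 0 to 2 (3xTg-AD alcohol against WT alcohol), 1 to 3 (genotype) and 1 to 3 (alcohol). The sign of Csf1r by alcohol reversed, to -0.0326, -0.066, -0.1721, -0.0382, -0.0131, -0.0363 and -0.0218, in 7 alternatives, with -0.0358 to 0.0825 when a mouse was left out. The sign of Tmem119 in 3xTg-AD alcohol against WT control reversed, to -0.1557, -0.1141, -0.1804, -0.0248, -0.0431 and -0.074, in 6 alternatives, with -0.0831 to 0.2203 when a mouse was left out. Ctss by genotype ran from -0.0326 to 0.2768 with a mouse left out. The genotype difference in the share of microglia was 1.784 points of named nuclei, 0.9124 by marker counts and 1.426 without the 3 mice named above, none called, and 1.145 to 1.542 with a mouse left out. That of WT alcohol against WT control ran from -0.1615 to 0.4663. The causes of these changes were not tested. Each mouse had at most 324 microglia nuclei, which limits the low genes most.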
